A study of Mus musculus with 4 samples.

Results

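DNA methylation and its removal in the R1 line of mouse embryonic stem cells (ESCs) were followed through the RNA of 10 genes, chosen by name from the 24421 genes counted. They are the DNA methyltransferases Dnmt1, Dnmt3a and Dnmt3b, their relative Dnmt3l, the ubiquitin ligases Uhrf1 and Uhrf2, the dioxygenases Tet1, Tet2 and Tet3, and the DNA glycosylase Tdg. The Undiff and Day4 states of R1 ESCs were compared with 2 Illumina TruSeq libraries each. Undiff was harvested from growth medium, described as maintained with leukaemia inhibitory factor (LIF) in the methods of the study and as embryoid bodies in its labels. By the methods, Day4 came from embryoid bodies formed without LIF in suspension for 4 days and then exposed to retinoic acid (RA) for 4 days. The dose of RA was 2 µM by the methods and the design text, whereas a treatment note of the labels gave another unit. RA, loss of LIF, growth as embryoid bodies and time in culture therefore changed together and their effects cannot be told apart. Both states come from 1 cell line, and each library is a mixture of the cells in its culture.

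The 4 libraries held 36674893 and 32099074 counts on genes in Undiff, with 34956489 and 47730944 in Day4. The share of fragments on no gene was 12.1 and 13.2% in Undiff and 7.50 and 7.74% in Day4, and its part in the results was not tested. The labelled states were checked against marker genes. Of 10 markers of pluripotent cells, 9 fell and 1 (Tbx3) rose, with summed normalized counts of 146225 to 150165 in Undiff and 2274 to 2346 in Day4. All 8 endoderm markers rose. Of 8 mesoderm markers 6 rose and 1 (Hand1) fell, and of 10 fibroblast markers 8 rose and 2 (Thy1 and S100a4) fell. Of 8 neural markers 4 rose and 2 (Tubb3 and Pax6) fell, and 1 of the 4, Neurog1, had 2 and 0 counts in Undiff against 13 and 7 in Day4. Under several alternatives, among them both DESeq2 fits, 3 neural markers rose. Of 6 markers of formative cells, the stage after naive pluripotency, 4 fell and none rose. Over all genes tested, 22.2% were called higher and 20.6% lower. Afp had 0 counts in both Undiff libraries and Otx2 had 0 and 1 in Day4. In bulk RNA of such mixtures, fewer cells of a type and less RNA per cell cannot be told apart, which holds for every gene below.

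Methylation of cytosine in CpG dinucleotides is written by DNMT3A and DNMT3B on unmethylated DNA, with DNMT3L as a partner that has no catalytic activity of its own. DNMT1 copies the pattern to the new strand behind the replication fork, where UHRF1 recognizes hemimethylated CpG and brings it in. TET enzymes oxidize 5-methylcytosine, and TDG excises the more oxidized bases so that repair can restore cytosine. ESCs are known for high Dnmt3b, Dnmt3l and Tet1, and tolerate the loss of all DNA methylation, which most somatic cells do not.

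The promoters of the 3 DNMT3 genes are shown because their CpG content differs. A link between CpG content and the levels of these genes was not tested, and the start sites used in these cells were not determined. Each RefSeq window (GRCm38.p6) holds 250 bases before and 50 after a start site, 5′ to 3′ on the strand of the gene, with each CpG in capitals. The windows are chr10:78042037-78042336 (+) for Dnmt3l, chr2:153649199-153649498 (+) for Dnmt3b and chr12:3806730-3807029 (+) for Dnmt3a.
Dnmt3l: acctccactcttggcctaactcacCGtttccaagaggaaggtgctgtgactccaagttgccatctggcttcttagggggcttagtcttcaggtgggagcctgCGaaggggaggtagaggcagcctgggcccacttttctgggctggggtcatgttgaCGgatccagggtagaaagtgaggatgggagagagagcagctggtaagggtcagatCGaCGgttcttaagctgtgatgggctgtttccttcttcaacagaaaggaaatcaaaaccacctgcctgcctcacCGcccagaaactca
Dnmt3b: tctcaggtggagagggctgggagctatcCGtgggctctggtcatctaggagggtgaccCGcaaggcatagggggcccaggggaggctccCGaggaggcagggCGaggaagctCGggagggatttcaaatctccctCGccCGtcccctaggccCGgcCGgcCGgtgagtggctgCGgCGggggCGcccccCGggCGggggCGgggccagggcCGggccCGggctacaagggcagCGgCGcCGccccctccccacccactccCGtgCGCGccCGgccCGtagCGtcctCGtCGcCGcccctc
Dnmt3a: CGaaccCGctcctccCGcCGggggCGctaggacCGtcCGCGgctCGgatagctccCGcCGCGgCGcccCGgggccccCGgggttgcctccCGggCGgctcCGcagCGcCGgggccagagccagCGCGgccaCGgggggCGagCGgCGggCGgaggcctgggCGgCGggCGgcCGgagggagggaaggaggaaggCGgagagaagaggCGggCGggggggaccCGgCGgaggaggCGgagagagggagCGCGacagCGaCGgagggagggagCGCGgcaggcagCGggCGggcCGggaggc
Dnmt3l and Dnmt3a have 3 windows each, of which the first is shown, and Dnmt3b has 1. The windows shown held 6 CpGs in Dnmt3l, 30 in Dnmt3b and 46 in Dnmt3a, beside a median of 7 over all 32851 promoter windows, with quartiles of 3 and 20. The Dnmt3l window lies inside the span of Aire, a gene on the opposite strand.

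All 10 genes had a RefSeq promoter window, 17 windows in all. At least 1 window of 8 genes held more CpGs than the upper quartile, the highest count being 57 in Tet2, with 33 in Dnmt1 and in Uhrf1, 28 in Uhrf2, 26 in Tdg and 22 in Tet3. Tet1 held 17. The other windows of Dnmt3a held 47 and 18. Dnmt3l was the only one of the 10 with all of its windows under the median of 7, at 6, 4 and 3 CpGs. Motifs were searched as exact letters on both strands. The GC box GGGCGG was found in 13 of the 17 windows, in 9 of the 10 genes, and in 35.7% of all windows. The E-box CACGTG was in 3 windows, of Dnmt3a, Dnmt3l and Tdg, and in 7.15% of all windows. The E2F letters TTTGGCGC were in 1 window, at position 33 after a Dnmt1 start, and in 0.514% of all windows. The octamer ATTTGCAT (1.74% of all windows), the E2F letters TTTCCCGC (1.07%) and a direct repeat of AGGTCA with 5 bases between the copies (0.00913%) were in none of the 17. These matches describe letters in the windows and no methylation or binding was measured.

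Of the 10 genes, 9 reached the minimum mean of 5 normalized counts and Tdg did not. A normalized count is a count scaled to a common library size. A gene was called where edgeR gave an adjusted p of at most 0.05, the log2 fold change of Day4 over Undiff was at least 1 in size and the minimum mean was met. Among the 10, 1 was called higher (Tet3) and 4 lower (Dnmt3l, Dnmt3b, Tet1, Uhrf1), beside 22.2% of the 19891 genes tested called higher and 20.6% called lower. Dnmt1, Tet2, Dnmt3a and Uhrf2 passed the adjusted p but changed by less than the minimum fold. The libraries of the 2 states did not overlap in 9 of the 10 genes, 3 higher and 6 lower, as in 85.4% of all genes. The median log2 fold change was −1.12 over the 10 genes, with Tdg at its fitted value, and −0.03 over all genes tested. Over the 9 genes at the minimum mean it was −0.90, beside 0.03 over all genes at that mean.

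**Figure D1:**
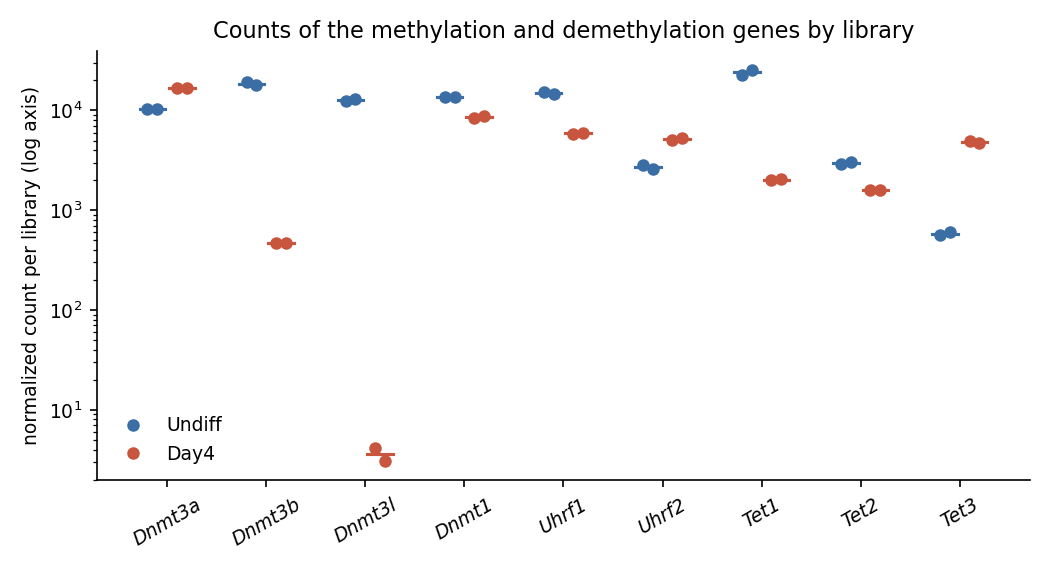
Normalized counts on a log axis for each of the 9 genes at the minimum mean, with 1 point per library, Undiff and Day4 in separate colours. Replicates lie close together, and the states are farthest apart in Dnmt3l, at 12566 and 13036 against 4.18 and 3.07.

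The de novo methyltransferase genes diverged: Dnmt3l and Dnmt3b fell to a small fraction of their Undiff level while Dnmt3a rose by less than the minimum fold. Dnmt3l (chr10:78041947-78063622, GRCm38) had 12059 and 10895 counts in Undiff and 4 and 4 in Day4. After scaling the Undiff level was 12801 ± 332 normalized counts, against 3.62 ± 0.783 in Day4 (values after ± are SDs of 2 libraries throughout). Both Day4 libraries were thus just above the floor of 3 counts, taken as the limit of a count of 0, and far under both Undiff libraries. The log2 fold change was −11.77 (SE 0.11, adjusted p = 1.1e-16 by edgeR). The ratio of the means was 3532, with an interval of 1792 to 8180 from the 8 Day4 counts, which covers counting error only.

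Dnmt3l and Aire, an immune gene with a role in thymic tolerance, lie on opposite strands and share 67 exonic bases, 2.24% of the merged exons of Dnmt3l. Strandedness was taken into account in counting on genes per the methods, which name only Direct RNA samples as run strand-specific. The option for TruSeq libraries in that step was not given in the sources used here. For counts on exons, TruSeq libraries were counted without strand. Aire had 1069 and 881 counts in Undiff and 1 and 1 in Day4, at least 399-fold lower against the floor of 3 counts per library. In Undiff, Aire held 8.86 and 8.09 counts for each 100 on Dnmt3l. Which of the overlapping genes a fragment on the opposite strand came from was not tested.

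Dnmt3b (chr2:153649450-153687730) had normalized counts of 19124 and 18056 in Undiff against 469 and 471 in Day4. The states were far apart, with a 39.5-fold fall and a log2 fold change of −5.30 (SE 0.06, adjusted p = 2.8e-16, edgeR). Dnmt3c, a rodent copy of Dnmt3b that acts in the male germ line, had no row in the tables used here. Its annotated transcript matches that of Dnmt3b at 93.9% over 1434 bases, and 5.71% of 100-base windows of the Dnmt3b transcript occur in it unchanged.

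Dnmt3a (chr12:3806007-3914443) had normalized counts of 10242 and 10246 in Undiff against 16776 and 16746 in Day4. Both Day4 libraries were higher and the replicates differed by far less than the states. The rise was 1.64-fold, a log2 fold change of 0.71 (SE 0.04, adjusted p = 8.2e-10, edgeR), below the minimum fold for a call. Its antisense transcript Dnmt3aos shares 133 exonic bases with it and had 1 and 2 counts in Undiff and 1 and 1 in Day4.

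The maintenance genes did not move alike, as Uhrf1 fell past the minimum fold, Dnmt1 fell by less, and Uhrf2 rose by less. Dnmt1 (chr9:20907209-20959888) had normalized counts of 13667 and 13515 in Undiff against 8324 and 8738 in Day4, 1.59-fold lower. Its log2 fold change was −0.67 (SE 0.04, adjusted p = 3.7e-09, edgeR). Uhrf1 (chr17:56303321-56323486) had 15331 and 14624 in Undiff against 5854 and 5999 in Day4, 2.53-fold lower, a log2 fold change of −1.34 (SE 0.04, adjusted p = 4.1e-12, edgeR). No library of one state reached into the range of the other for either gene.

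Uhrf2 (chr19:30030513-30093722), a paralogue that also binds modified cytosine but does not replace UHRF1 in maintenance, had normalized counts of 2857 and 2608 in Undiff against 5068 and 5275 in Day4. Its log2 fold change of 0.92 (SE 0.05, adjusted p = 1.9e-09, edgeR) was the closest of the 4 uncalled changes to the minimum fold on the higher side, at 1.89-fold. Tet2, at −0.90, was the closest on the lower side. Of 100-base windows of the Uhrf1 transcript, 7.05% occur unchanged in the processed pseudogene Gm5648, and none of the Dnmt1 or Uhrf2 transcript occur in another gene.

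Because Dnmt1 and Uhrf1 act at replication forks, 16 genes of replication and mitosis were read beside them. None rose, 8 fell (50%) and 8 were not called, beside 22.2% called higher and 20.6% lower over all genes. The median log2 fold change was −1.02 beside −0.03 over all genes. Their summed normalized counts were 268929 to 273699 in Undiff and 124786 to 130399 in Day4. Ccne1, the cyclin of entry into S phase, fell from 16466 ± 823 normalized counts to 2294 ± 108 (log2 fold change −2.85, adjusted p = 2.3e-14, edgeR). Ccnb1, the mitotic cyclin, fell from 17665 ± 201 to 5490.2 ± 42.5 (log2 fold change −1.69). The changes of Dnmt1 and Uhrf1, −0.67 and −1.34, lay on either side of the median of this list, and the part of proliferation in them was not tested.

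The TET genes exchanged their order. Tet1 (chr10:62804570-62908996) had normalized counts of 22831 and 25281 in Undiff against 1998 and 2065 in Day4. It fell 11.8-fold, a log2 fold change of −3.56 (SE 0.06, adjusted p = 6.2e-15, edgeR). Tet3 (chr6:83362373-83459084) moved the other way, from 561 and 608 to 4984 and 4732.5, which is 8.32-fold and a log2 fold change of 3.06 (SE 0.06, adjusted p = 5.2e-14, edgeR). In both genes the libraries of the states lay far apart compared with their replicates.

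Tet2 (chr3:133463679-133545139) had normalized counts of 2928 and 3021 in Undiff against 1601 and 1593 in Day4. It was 1.86-fold lower, a log2 fold change of −0.90 (SE 0.05, adjusted p = 1.4e-09, edgeR), and was not called. Tet2 lacks the CXXC domain of Tet1 and Tet3, which in its case is carried by the neighbouring gene Cxxc4. Cxxc4 had 11 and 8 counts in Undiff and 385 and 511 in Day4, a log2 fold change of 5.21 (SE 0.19, adjusted p = 1.7e-11, edgeR), opposite in direction to Tet2.

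**Figure D2:**
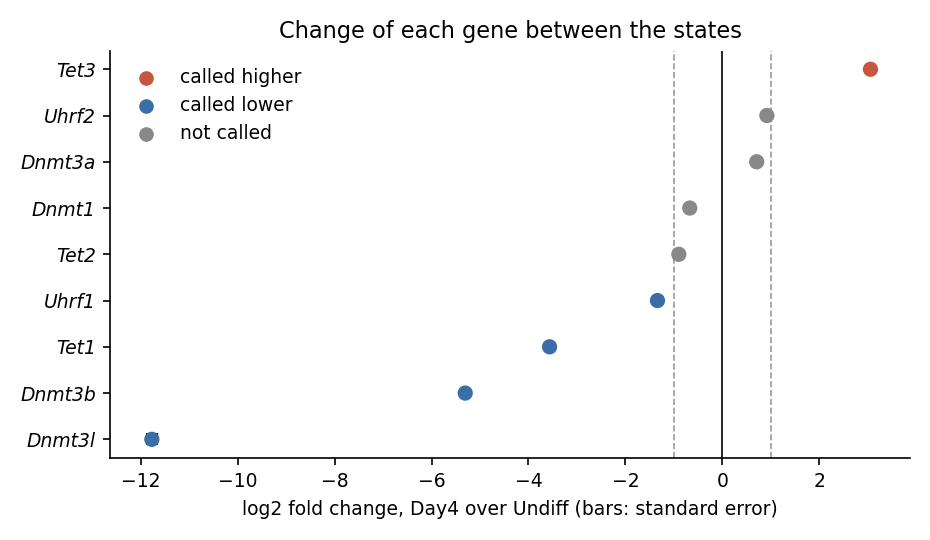
Log2 fold change of Day4 over Undiff for the same 9 genes, with bars of 1 SE, mostly hidden behind the points, and dashed lines at the minimum fold of the call. Dnmt3l, Dnmt3b, Tet1 and Uhrf1 lie beyond the lower line and Tet3 beyond the upper line, with Dnmt1, Tet2, Dnmt3a and Uhrf2 between the lines.

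Tdg (chr10:82629828-82650799) had 1 and 2 counts in Undiff and 1 and 0 in Day4, at or under the floor of 3 counts in every library, so no fold is given. The change was not past the threshold (adjusted p = 0.30, edgeR). The deposited counts hold fragments with 1 alignment in the genome. The longest coding transcript of Tdg has 3502 bases, of which 2968 align at 98.7% identity to the processed pseudogene Tdg-ps on chr15, with 1194 at 99.2% to Gm9855 and 1193 at 99.3% to Gm5597. Of its 3403 windows of 100 bases, 1565 (46.0%) occur unchanged, on either strand, in the transcripts of other genes. This was the highest share of the 10 genes, where 7 had none. The remaining windows had no such match. Glt8d2, which overlaps Tdg, is among the genes matched, so windows found in it need not be second copies in the genome. Gm9855 had 0 counts in all libraries. Tdg also shares 367 exonic bases with Glt8d2 on the opposite strand, which had 17 and 12 counts in Undiff and 81 and 93 in Day4. The part of these copies and of the overlap in the low count of Tdg was not tested.

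Levels of different genes were compared as FPKM, here fragments per kilobase of merged exons with TMM-scaled library sizes. The annotation that gave the lengths may differ from that used for counting, so the order between genes is approximate. In Undiff, Dnmt3l stood first at 114 ± 2.97 FPKM, followed by Dnmt3b at 97.3 ± 3.95 and Uhrf1 at 93.9 ± 3.14, and the ranges of the latter pair overlapped. Below them came Dnmt1 at 49.2 ± 0.390, Tet1 at 41.6 ± 2.99, Dnmt3a at 16.4, Uhrf2 at 8.50, Tet2 at 4.71 and Tet3 at 0.935, with no overlap between neighbours. In Day4 the order was Uhrf1 at 37.2 ± 0.641, Dnmt1 at 30.9 ± 1.06, Dnmt3a at 26.9, Uhrf2 at 16.1, Tet3 at 7.77, Tet1 at 3.51, Tet2 at 2.53, Dnmt3b at 2.46 and Dnmt3l at 0.0324, again without overlap. With the length of the longest transcript in place of merged exons, the Undiff order was the same, and the Day4 order opened with Dnmt3a at 46.2, Uhrf1 at 44.1, Uhrf2 at 39.1 ± 1.11 and Dnmt1 at 38.8 ± 1.33, the last 2 closer together than their SDs. Tet2 at 4.65 then stood above Tet1 at 3.78.

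The summed level of the 3 DNMT3 genes went from 228 ± 0.981 to 29.4 ± 0.0329 FPKM, a Day4 level of 0.129 of that in Undiff. Within it the makeup turned from Dnmt3b and Dnmt3l to Dnmt3a. Dnmt3l, which has no catalytic activity of its own, was 114 FPKM of the Undiff sum and 0.0324 of the Day4 sum. The sum therefore does not stand for the enzymes alone. Dnmt3a made up 14.5% ± 0.507 of the level of Dnmt3a plus Dnmt3b in Undiff and 91.6% ± 0.0374 in Day4. Dnmt3l stood at 101 ± 6.11 for each 100 of Dnmt3a plus Dnmt3b in Undiff and at 0.110 ± 0.0237 in Day4. The Undiff ratio depends on the length used. With the longest transcripts, Dnmt3l stood at 188 in Undiff, beside 115 for Dnmt3b and 28.3 for Dnmt3a, which is a higher ratio.

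The summed TET level went from 47.2 ± 3.15 to 13.8 ± 0.212 FPKM, a ratio of 0.293. Tet1 was 88.0% ± 0.466 of it in Undiff and 25.4% ± 0.982 in Day4, whereas Tet3 was 1.98% ± 0.0191 in Undiff and 56.3% ± 1.20 in Day4. Tet2 went from 9.99% to 18.3% of the sum while its own level fell. The level of Uhrf1 over that of Uhrf2 was 11.1 ± 0.344 in Undiff and 2.31 ± 0.0255 in Day4, and 5.41 and 1.13 with the longest transcripts. Dnmt1 stood at 0.524 ± 0.0134 of the level of Uhrf1 in Undiff and 0.831 ± 0.0141 in Day4.

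**Figure D3:**
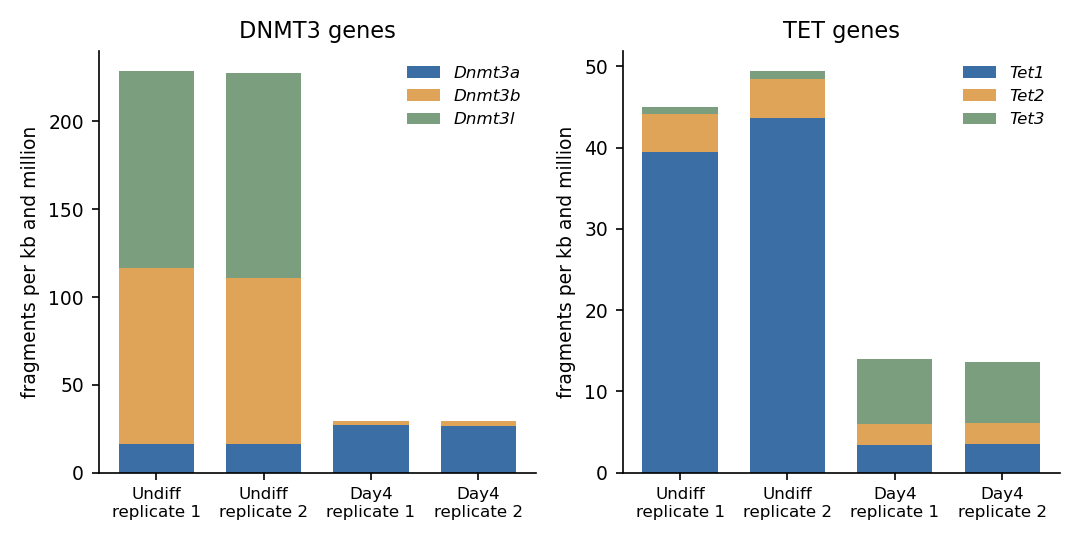
Levels of the DNMT3 genes and of the TET genes in FPKM with merged exons as length, stacked for each of the 4 libraries, bars starting at 0. The DNMT3 stack is 228 in Undiff and 29.4 in Day4, where it is nearly all Dnmt3a, and the TET stack is mostly Tet1 in Undiff and mostly Tet3 in Day4.

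The other genes of the pathway were read in 5 lists of 46 genes, of which 10 rose, 12 fell and 24 were not called, with a median log2 fold change of −0.09. Counts over the 5 lists together lie near the 22.2% higher and 20.6% lower of all genes. Of 6 partners of maintenance methylation, 3 fell, none rose, and the median was −0.96, and 2 fell with library totals or without replicate 1 of Undiff. Hells, a chromatin remodeller needed for methylation of repeats, fell from 20418 ± 1237 to 3845 ± 176 normalized counts (log2 fold change −2.41, SE 0.05, adjusted p = 1.0e-13, edgeR). Usp7, a deubiquitinase that binds DNMT1 and UHRF1, fell by 1.46 on the log2 scale, and the replication ligase Lig1 had a log2 fold change of −1.02. Of 11 genes that recruit or bar methyltransferases, 4 fell and none rose, with a median of −0.43, and 3 fell with library totals or without replicate 2 of Undiff. They were Prdm14, a repressor of Dnmt3b in naive cells (−5.67), Dppa3, which protects methylation in the zygote and keeps UHRF1 off chromatin (−5.11), the imprint-binding factor Zfp57 (−2.57) and its corepressor Trim28 (−1.02). Lig1 and Trim28 are the calls of these lists closest to the minimum fold. Dppa3 stood at 1763 ± 58.6 normalized counts in Undiff against 50.4 ± 4.76 in Day4.

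Of 6 TET partners and enzymes of the 2-oxoglutarate cofactor, 2 rose and 1 fell, with a median of 0.86, a list too short to set against the shares of all genes. Besides Cxxc4, the mitochondrial dehydrogenase Idh2, which makes 2-oxoglutarate, rose from 3304 ± 261 to 8543 ± 7.38 normalized counts (log2 fold change 1.37). Vprbp, a part of a ubiquitin ligase that modifies TET proteins, fell by 1.30 on the log2 scale. Of 13 genes of base excision and repair, 1 rose, 3 fell and 9 were not called, with a median of −0.19. Under several alternatives, among them both DESeq2 fits, 4 fell. With 3, the share that fell, 23.1%, is near the 20.6% of all genes. The share that rose, 7.69%, is under the 22.2% of all genes. The riser was Smug1, a uracil glycosylase that also removes an oxidized pyrimidine, at 612 ± 30.1 in Undiff and 6339 ± 65.8 in Day4, a log2 fold change of 3.37 (SE 0.06, adjusted p = 1.1e-14, edgeR). The glycosylases Neil2 (−2.75) and Ung (−1.27) and the stress gene Gadd45a (−1.88) fell.

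Of 10 genes listed as readers of methylated CpG or their MBD relatives, 7 rose (70%) and 1 fell (10%). Over all genes tested, 22.2% were called higher and 20.6% lower. The median of the list was 1.86 beside −0.03 over all genes. Mbd3, Mbd5 and Mbd6 are in the list as MBD family members and not as established readers. Of these, Mbd5 (2.05) and Mbd6 (1.20) rose and Mbd3 (0.55) was not called. Zbtb4, a zinc-finger repressor, rose from 62.1 ± 5.27 to 1087 ± 23.6 normalized counts (log2 fold change 4.13, SE 0.11, adjusted p = 5.2e-13, edgeR). Mbd2, a reader that recruits the NuRD complex, rose by a log2 fold change of 2.30 (SE 0.09). Mbd4, the one member of the list that is itself a glycosylase, acting on mismatched thymine in CpG, went the other way, from 1688 ± 14.2 to 686 ± 52.7 (log2 fold change −1.29, SE 0.07, adjusted p = 5.2e-10, edgeR). Trdmt1, a relative of the methyltransferases that methylates transfer RNA, was not called, at 465 ± 30.4 and 420.1 ± 21.9 normalized counts.

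**Figure D4:**
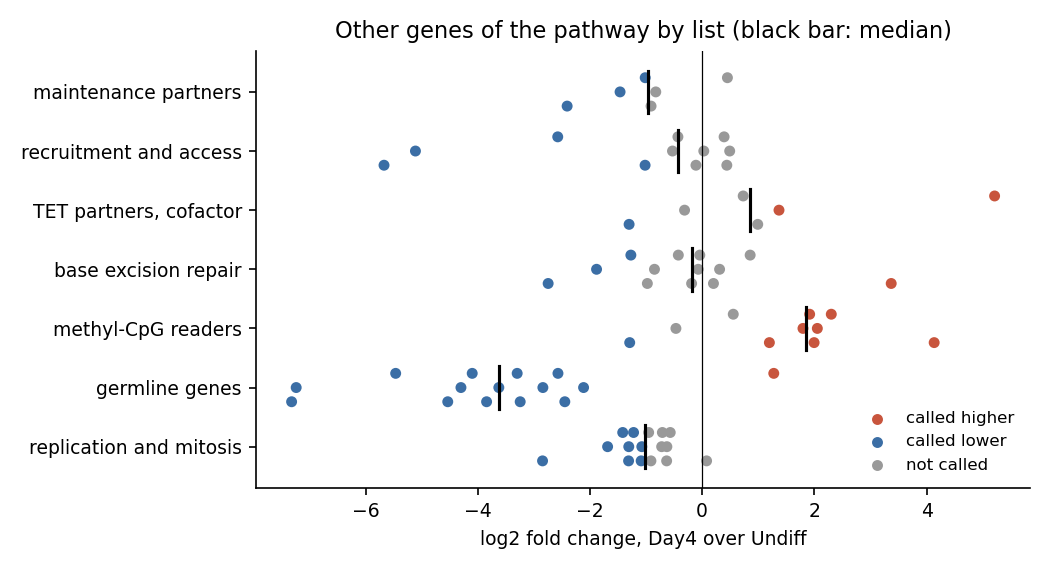
Log2 fold change of Day4 over Undiff for each gene of the other lists, 1 point per gene with called genes in colour and a black bar at the median of each list. The list of methyl-CpG readers and their MBD relatives has its median at 1.86 and the germline genes at −3.62.

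Germline genes whose promoters are silenced by methylation in somatic cells were read as known targets. Of 15, 14 fell (93.3%) and 1 rose (6.67%), beside 20.6% called lower and 22.2% higher over all genes. The median log2 fold change was −3.62, beside −0.03 over all genes. Hormad1, a gene of meiotic chromosomes, had 420 and 376 counts in Undiff and 5 and 1 in Day4. Rpl10l, a retrogene for a ribosomal protein used in testis, had 859 and 732 counts in Undiff and 4 and 9 in Day4. Brdt, a bromodomain gene of spermatogenesis, went the other way, from 85.3 ± 1.23 to 206 ± 4.91 normalized counts (log2 fold change 1.28, SE 0.14, adjusted p = 1.5e-06, edgeR). The methylation of these promoters was not measured here. The summed normalized counts of the 10 fibroblast markers were 3045 to 3345 in Undiff and 62443 to 67780 in Day4, and the part of such cells in the changes of the lists was not tested.

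The genes nearest in pattern were taken by Euclidean distance over the 4 libraries, in log2 CPM centred on the mean of each gene, among 10067 genes of at least 10 CPM (counts scaled to a common library total). Nearest to Dnmt1 were Ercc8 (0.0097), Arl15 (0.0141) and Smc4 (0.0162). Those nearest to Dnmt3b were Camkv (0.0946), Mt2 (0.155) and Tgm1 (0.178). For Tet1 they were 4930447C04Rik (0.0583), Fzd5 (0.0868) and Manba (0.111). With 4 libraries in 2 states, this likeness is mostly a like log2 fold change, as between Dnmt3b at −5.30 and Camkv at −5.28.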

How the data were processed

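RNA of 2 Undiff and 2 Day4 cultures, grown and treated separately, was sequenced on the Illumina TruSeq platform. The authors deposited fragment counts for each gene, made with cutadapt, STAR 2.4.2a and HTSeq on mm10 from uniquely aligned fragments, without normalization. Strandedness was considered in counting on genes, per the methods, which name only Direct RNA samples as strand-specific. The option for TruSeq libraries in that step was not given in the sources used here, and their exons were counted without strand. The labels and the methods name different library kits.

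The quasi-likelihood test of edgeR 4.0.16 (R 4.3.3) was run on TMM-scaled counts. All 19891 genes that had at least 1 fragment entered it, and p-values were adjusted by Benjamini-Hochberg. The thresholds of a call are those of the study. The SE is the size of the log2 fold change divided by the square root of F. The test was tested on simulated data of 19531 genes, where edgeR recovered 200 of 200 changed genes with 0 false calls. DESeq2 with the settings of the study recovered 153 (median log2 error 0.94). Only those 200 genes changed, at a fixed dispersion, unlike in these data, so the simulation cannot rank the tests here. The 200 were drawn from well-counted genes and set past the minimum fold. Their recovery does not bear on genes near the thresholds or the floor. In these data DESeq2 with the settings of the study called 4137 genes higher and 3977 lower, beside 4420 and 4101 by edgeR. Groups and replicate numbers were taken from the sample titles. DESeq2 1.42.0, with and without the settings of the study, other scalings, filters, lengths, a replicate block and leaving out each library were the alternatives. The legacy quasi-likelihood fit of edgeR was added after the data were seen. Exon lengths were taken from GENCODE vM21 (GRCm38, the same assembly as mm10), and promoters from RefSeq. For counting on genes, the methods name an mm10 annotation from iGenomes UCSC, and the study elsewhere names GENCODE. The exons behind the lengths may therefore differ from those counted, and the effect on levels was not tested.

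The 10 genes and the lists were chosen with earlier results of these data known. Named are all 10 genes, and in each other list of the pathway the 2 called genes with the largest change in each direction and any called against most of its list. Relatives, overlapping genes and the 3 nearest genes in pattern of Dnmt1, Dnmt3b and Tet1 are named too. Lig1, Zfp57, Trim28, Ung, the marker genes and the pseudogenes were named after their values were seen. Mbd3, Mbd5 and Mbd6 are also named outside this rule, as MBD family members. At 2 libraries against 2, an exact permutation test of 1 gene has a smallest two-sided p of 0.333, so p-values are given from edgeR. Protein features were not analysed here.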

Additional observations from a re-analysis of the deposited data

How the results depend on the processing

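The log2 fold changes of the 9 genes other than Tdg kept their direction and their side of the thresholds under every alternative run. Tdg, under the minimum mean, was never called and had no value under the filter on low counts. Its fitted value ranged from −3.89 to −0.64 over the other alternatives, and its adjusted p was 0.041 by edgeR on thinned counts. Dnmt1 ranged from −0.74 to −0.60, Uhrf2 from 0.86 to 0.99 and Tet2 from −0.95 to −0.83. Without the minimum fold change, 3 of the 10 genes were called higher and 6 lower, and 7305 and 7004 of all genes were called higher and lower. The same setting gave 1 higher and 5 lower among maintenance partners and 3 higher and 6 lower among recruiting genes. It gave 4 higher and 2 lower among TET partners and 4 higher and 6 lower in base excision. In the list of readers and MBD relatives it gave 8 higher and 2 lower. Replication had 15 lower and formative markers 2 higher. Library totals left 2 lower among maintenance partners and 3 among recruiting genes, and gave 3 higher among TET partners. Base excision had 4 lower with either DESeq2 fit, DESeq2 size factors, the filter or thinning. Formative markers had 1 called higher with library totals and with counts thinned to the smallest total, and 0 to 1 with 1 library left out (1 without replicate 1 of Undiff or of Day4). With the longest transcript length, Undiff and Day4 gave DNMT3 sums of 330.9 and 49.2, Dnmt3a shares of 19.7 and 94.1%, TET sums of 54.8 and 20.3, Tet1 shares of 81.6 and 18.6%, Tet2 shares of 15.8 and 22.9%, Tet3 shares of 2.61 and 58.5%, Uhrf1 over Uhrf2 of 5.41 and 1.13 and Dnmt1 over Uhrf1 of 0.555 and 0.879. Dnmt3l was then 131 for each 100 of Dnmt3a plus Dnmt3b in Undiff. Library totals gave DNMT3 sums of 222.9 and 30.1 and a Day4 TET sum of 14.1. Other lengths change these levels by construction. In the fit with a replicate block, 1 of the 10 genes was called higher and 4 lower, and no call of these genes changed. The numbers are shared only as numbers, and the differences between replicates 1 and 2 in Undiff and Day4 had a correlation of −0.01 over 16472 genes, so the block is no pairing. At this depth, 3 counts are 0.0629 to 0.0935 CPM, which limits the Day4 value of Dnmt3l and any fold for Tdg. Why the Tdg count was so low was not tested.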
